A study of Mus musculus with 24 samples.

Results

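The genes described here are the replication-dependent and linker histone genes of the mouse. They were chosen by symbol alone, as every gene whose name begins with Hist1h to Hist4h, H1f, H2ac, H2bc, H3c or H4c, and 72 of the 55291 genes in the count files met this rule. By class they comprised 11 linker (H1), 20 H2A, 17 H2B, 12 H3 and 12 H4 genes. On GRCm38, 57 of them lie on chromosome 13, 10 on chromosome 3, and 5 on chromosomes 6, 15 and 19. The symbol rule also takes in a few linker genes that are not replication-dependent, namely H1f0, H1f8 and H1f10.

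The study asked what happens to mouse embryos when transcripts of the endogenous retrovirus MERVL are depleted. Zygotes from superovulated B6D2F1 (BDF1) females mated with males of the same cross, both 8 weeks old, were injected in the male pronucleus with antisense oligonucleotides (ASOs) at 20 µM and cultured in KSOM medium. Embryos given a mixture of 3 ASOs against MERVL are called MERVL-KD embryos, and embryos given a scrambled ASO are the controls, so both groups were injected. Total RNA was sequenced from pools of 30 zona-free embryos at the 2-cell stage (1.5 days post-coitum) and at the 4-cell and 8-cell stages (both labelled 2.5 days post-coitum), with 2 libraries for each of the 6 groups. One field of the labels gives the strain as BDF2 and another as BDF1. The paper reports that MERVL-KD embryos were delayed in development from the day of the later collections. It also states that the cleavage stage of the collected embryos was checked by eye. The groups were thus matched by visible cleavage stage, and whether they also matched in cell-cycle phase was not tested. Each library is a pool of whole embryos, so fewer transcribing cells and less RNA per cell cannot be told apart. Nothing ties the 2 libraries of a group to separate days or litters, and p-values measure only the spread between these samples.

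Histones package DNA into nucleosomes, in which DNA wraps around a core of H2A, H2B, H3 and H4, while an H1 linker histone binds the DNA at the nucleosome's edge. The core histones and the somatic H1 proteins are encoded by clustered, mostly intronless genes that are transcribed chiefly in S phase, when newly made DNA must be packaged. Their mRNAs are exceptional in ending in a conserved stem-loop in place of a poly(A) tail, and the stem-loop is bound by the protein Slbp, which acts in processing, translation and decay of the message. Oocytes store histone mRNAs that serve the first cleavages, and they contain an oocyte linker histone, H1f8 (H1oo), that is replaced by somatic H1 after activation of the embryonic genome. Because reverse transcription was primed with random hexamers, and ribosomal fragments were later depleted from the cDNA, mRNAs without a poly(A) tail could be captured.

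The count totals were 28167085 to 41482526 per library, of which 63496 to 183288 fell on the histone genes (0.22 to 0.442%). MERVL-int, the internal part of MERVL, made up 1.07 to 6.57% of counts in control libraries and 0.0278 to 0.157% in MERVL-KD libraries, with log2 differences of −5.72, −5.53 and −5.40 in 2-cell, 4-cell and 8-cell embryos. The 4 ASOs, 20 bases each, had 0 matches to the histone genes with up to 4 mismatches. Summed markers of cumulus and granulosa cells stayed between 2.38 and 9.23 CPM (counts-per-million of the library total) in all libraries, and those of sperm between 0.25 and 2.25. In 2-cell libraries the cumulus and granulosa sum was 4.84 to 5.55 CPM for controls, against 8.57 to 9.23 for MERVL-KD. Most of this difference was Star, 1 of the 10 genes summed, at 1.76 and 1.89 CPM in controls, against 5.15 and 4.66 in MERVL-KD. Has2 went the other way, at 0.954 and 0.581 against 0.507 and 0.493. What part the difference in the sum had in the 2-cell results was not tested.

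The stem-loop is shown first because it is the feature that most sets these genes apart. A 16-base stem-loop with 6 paired positions, beginning with GG, ending with CC and carrying a 4-base loop that starts with TT, was found within or up to 300 bases around 60 of the 72 genes. It occurred in 6 spellings, and the following genes show each of them, together with the genes on which later results turn. Capitals mark the stem-loop, and the bases are the sense strand of the RefSeq GRCm38.p6 genome.
H1f1 (chr13:23764385-23764414, plus strand): acccaacGGCTCTTTTCAGAGCCaccaaca
H2bc12 (chr13:22036293-22036322, plus strand): caccaaaGGCTCTTTTAAGAGCCactaaac
H4c4 (chr13:23581943-23581972, plus strand): aaccaaaGGCCCTTTTCAGGGCCactacct
H4c9 (chr13:22040959-22040988, minus strand): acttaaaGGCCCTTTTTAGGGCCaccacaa
H2ac20 (chr3:96220411-96220440, minus strand): ccaaaaaGGCTCTTTTTAGAGCCaccaaat
H4c11 (chr13:21735430-21735459, plus strand): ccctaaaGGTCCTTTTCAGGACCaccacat
H1f4 (chr13:23621775-23621804, minus strand): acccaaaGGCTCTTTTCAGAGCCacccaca
H3c7 (chr13:23544925-23544954, plus strand): ccaaaacGGCTCTTTTAAGAGCCacctcca
H2bc1 (chr13:23933723-23933752, minus strand): acccaaaGGCTCTTTTAAGAGCCacccacc
The first spelling, seen in H1f1 and H1f4, was carried by 39 genes, that of H2bc12, H3c7 and H2bc1 by 9, and that of H4c4 by 7. The spellings of H4c9, H4c11 and H2ac20 were carried by 2, 2 and 1 genes. The stem-loop ended inside the annotated gene in 44 cases and past its annotated end in 16, as in H2bc1. Some of the 16 straddle that end, as in H1f1, whose stem-loop ends at base 23764407 and whose annotation ends at 23764406. In a fixed window of 300 bases on each side of the annotated 3′ end, 40 of 72 histone genes (55.6%) and 7 of 11666 other genes on the same chromosomes (0.06%) held one. Among the linker genes it was found in H1f1 to H1f6 and not in H1f0, H1f7, H1f8, H1f10 or H1f11-ps.

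Near-identical copies limit what can be said of single core histone genes, since the counts came from uniquely aligned reads. Of the 72 genes, 21 had no 150-base exon stretch repeated elsewhere in the assembled genome, 21 had fewer than 50% of such stretches unique, and 5 had none unique. Linker genes were the most distinct class, with 0 of 11 under 50%, whereas 11 of 20 H2A genes were, and 3 H2B, 4 H3 and 3 H4 genes. The 5 genes without a count in any library were H2ac18, H2ac19, H2bc18, H3c13 and H3c14. H2ac18, H2ac19 and H3c13 have few unique stretches, and H2ac18, H2bc18 and H3c14 overlap another gene on the same strand, so a zero in these 5 genes cannot be read as absence of the transcript. In addition, 28 of the 72 genes share exonic bases with another annotated gene, including all 20 H2A genes on the opposite strand, and the strand setting of the counting is not given in the sources used here.

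The linker histones had the largest summed counts in every library, followed by H2B. These sums hold uniquely aligned counts and are not scaled to gene length. The median share of unique stretches was 100% for H1, 41.1% for H2A, 77.1% for H2B, 70.7% for H3 and 82.2% for H4. The sums therefore cannot rank the classes by amount of transcript. In controls, linker genes together took 1119 and 971 CPM in 2-cell libraries, 850.3 and 852 in 4-cell libraries and 1273 and 1028 in 8-cell libraries. H2B genes took 606 and 535, then 528 and 488, then 969.6 and 702 CPM. For H3 the sums were 448 and 406, then 305 and 344, then 460.1 and 384 CPM. H2A and H4 started lower and had their highest control values at the 8-cell stage, H2A going from 95.9 and 97.2 to 148 and 167 and then 307 and 207 CPM, and H4 from 241 and 224 to 370 (369.7) and 402 and then 672 and 555 CPM. Thus the 2-cell and 4-cell controls did not overlap in any class, with H1, H2B and H3 lower and H2A and H4 higher at the 4-cell stage.

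**Figure D1:**
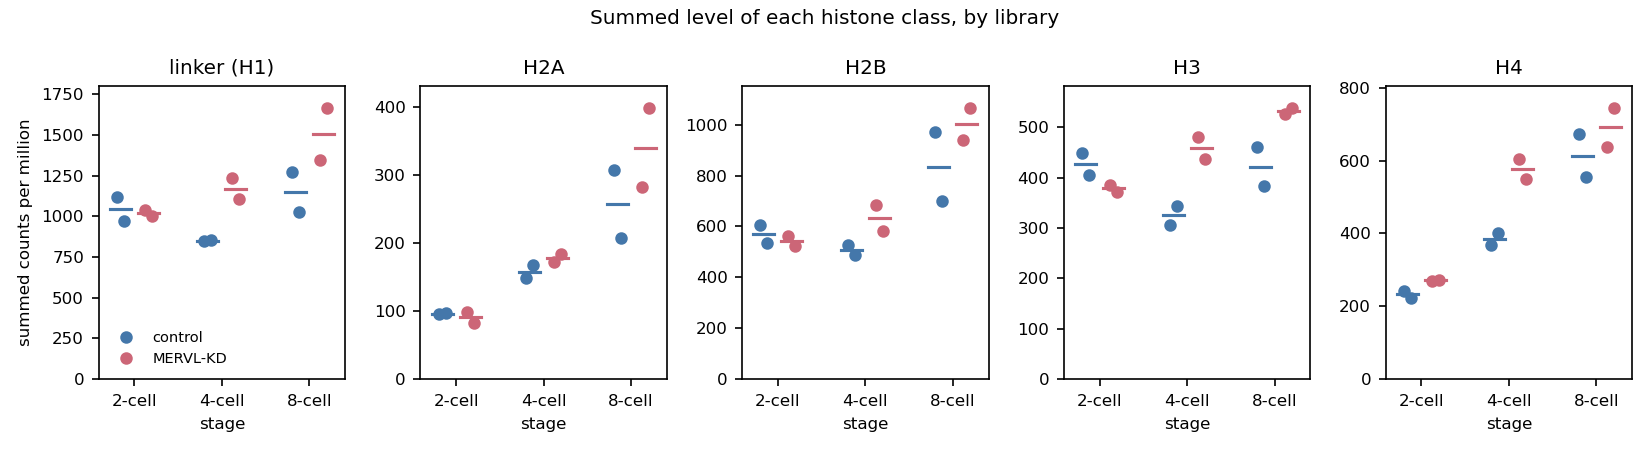
Summed CPM (vertical axis, from 0) of the H1, H2A, H2B, H3 and H4 genes in each of the 12 libraries, by stage. Points are libraries and bars are group means. At the 4-cell stage both MERVL-KD libraries lie above both controls in every class. On this scale the 2-cell groups overlap for H1, H2A and H2B.

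From the 2-cell to the 4-cell stage the makeup of the linker pool changed. Levels within the pool are given as RPKM (counts divided by the annotated exon length in kilobases and scaled to the library's total). This scale allows for gene length but not for the share of unique stretches. H1f1 (H1a), one of the somatic-type linker histones, had 1255 and 1045 RPKM in 2-cell controls, 347 and 277 in 4-cell controls and 431 and 348 in 8-cell controls. The 2-cell libraries lay far above all others, and H1f1 fell by 2.05 ± 0.14 (SE, n = 2 per group) on the log2 scale between the first 2 stages (adjusted p = 1.1e-09, edgeR quasi-likelihood test with Benjamini-Hochberg adjustment over all genes and repeat families tested). It took 79.7 to 83.1% of linker counts in the 4 libraries of the 2-cell stage and 24.1 to 30.2% in the 4 libraries of the 4-cell stage.

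The somatic linker genes H1f2 to H1f5 (H1c, H1d, H1e and H1b) went the other way. H1f4 had 3.15 and 2.83 RPKM in 2-cell controls, 71.3 and 64.1 in 4-cell controls and 101 and 96.3 in 8-cell controls. Its stages did not overlap, and it rose by 4.33 ± 0.14 on the log2 scale from the 2-cell to the 4-cell stage (adjusted p = 7.0e-16, edgeR, Benjamini-Hochberg) and by 0.75 ± 0.12 from the 4-cell to the 8-cell stage (adjusted p = 0.00091). H1f2 had 13.7 in both 2-cell controls, 148 and 171 in the 4-cell and 253 and 187 RPKM in the 8-cell controls, with first-step and second-step rises of 3.37 ± 0.17 and 0.67 ± 0.16. H1f3 rose by 2.49 ± 0.16 and 0.73 ± 0.15, and H1f5 by 1.13 ± 0.14 and 0.70 ± 0.13. The second step no longer passed the adjusted p for H1f2 without control 4-cell replicate 1 (0.57), control 4-cell replicate 2 (0.78) or control 8-cell replicate 1 (0.44), and for H1f3 without control 4-cell replicate 1 (0.57) or control 8-cell replicate 1 (0.49). The annotated exons of H1f3 run to 7425 bases, which lowers its RPKM. Together H1f2 and H1f4 moved from 1.91 to 2.71% and 0.544 to 1.14% of linker counts in 2-cell libraries to 27.1 to 31.3% and 14.5 to 16.9% in 4-cell libraries. H1f4 shares exonic bases with H2bc6 on the same strand.

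The oocyte linker gene H1f8 and the replacement linker gene H1f0 (H1.0), both without a recognised stem-loop, had falling levels. H1f8 had 38.2 and 39.5 RPKM in 2-cell, 8.65 and 9.52 in 4-cell and 8.23 and 9.27 in 8-cell controls, a fall of 2.27 ± 0.18 on the log2 scale at the first step. H1f0 had 28.4 and 30.7, then 5.56 and 5.70, then 5.10 and 4.81 RPKM, and fell by 2.56 ± 0.16. For both genes the 2-cell libraries stood above the rest, and neither passed the test from the 4-cell to the 8-cell stage, where the log2 differences were 0.15 ± 0.18 for H1f8 and 0.02 ± 0.16 for H1f0. H1f10 (H1x), a ubiquitous linker histone outside the clusters, was low throughout the controls, at 1.67 to 2.84 RPKM. H1f6, the testis linker histone H1t, was at 0.461 to 2.72 RPKM in controls, and the testis gene H1f7 and the pseudogene H1f11-ps were too low to be tested.

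**Figure D2:**
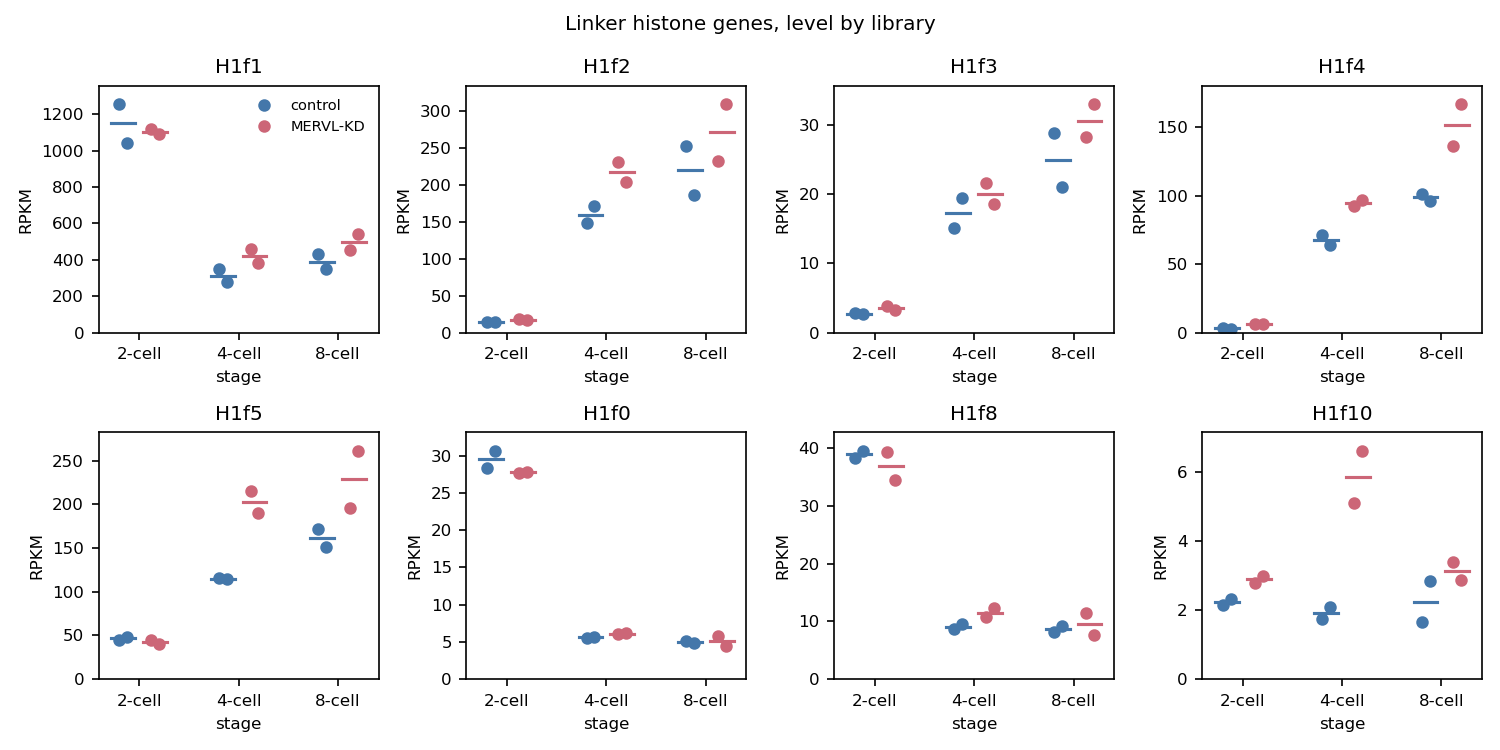
RPKM (vertical axis, from 0, scaled per gene) of 8 linker histone genes in each library by stage. Points are libraries and bars are group means. H1f1, H1f0 and H1f8 are highest at the 2-cell stage, and H1f2 to H1f5 are lowest there.

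Across all classes, 62 histone genes were tested between stages. In controls, 21 were at least 2-fold higher at the 4-cell than at the 2-cell stage and 8 at least 2-fold lower, both at an adjusted p under 0.05 (called, below), against 20.7% and 24.3% of all genes tested. The median log2 difference over the 62 genes was 0.73 and that over all genes was −0.06. The 8 lower genes were H1f0, H1f1, H1f8, H2bc1, H2bc9, H2bc12, H3c7 and H4c3. Of the 55 tested genes with a stem-loop, 28 passed the adjusted p as higher and 8 as lower. Of the 7 in which none was found, 4 passed, each as lower, where 26.4% and 28.7% of all genes passed as higher and as lower. The search took only stem-loops with all 6 positions paired, and the 7 genes include the chromosome 13 core genes Hist1h2an, H3c8 and H4c1.

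Among core genes, a few abundant 2-cell transcripts gave way to others. H3c7, which encodes a replication-type H3, had 241 and 213 RPKM in 2-cell, 60.8 and 53.2 in 4-cell and 54.2 and 50.6 in 8-cell controls, and fell by 2.16 ± 0.11 on the log2 scale at the first step (adjusted p = 2.2e-13, edgeR, Benjamini-Hochberg). Its share of H3 counts went from 64 to 67.9% in the 2-cell libraries to 19.5 to 25.1% in the 4-cell libraries. The H2B gene H2bc12, with 39.1% of its stretches unique, fell by 1.32 ± 0.12, from 505 and 447 to 228 and 199 RPKM. In the H4 class, H4c4 had 21.1 and 27.3, then 133 and 147, then 231 and 194 RPKM, rising by 2.36 ± 0.15 and 0.81 ± 0.14. It held 9.99 to 16.7% of H4 counts in 2-cell libraries and 40.8 to 42.3% in 4-cell libraries. The largest rises after H1f4 and H1f2 were those of H4c12, by 3.36 ± 0.24, and of the H2A gene H2ac8, by 3.00 ± 0.34, and fewer than 50% of the 150-base stretches of H4c12 are unique.

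Of the other abundant core genes, H2ac13, H3c6 and H4c8 rose, H2bc11 fell and H2ac12 passed at neither step. The most abundant H2A genes by mean RPKM over the 12 libraries were H2ac13 and H2ac12, with 13.9 and 15.2% of their stretches unique. H2ac13 had 20.9 and 23.9 RPKM in 2-cell, 64.3 and 69.4 in 4-cell and 151 and 109.9 in 8-cell controls, and rose by 1.40 ± 0.20 and 1.17 ± 0.19 at the successive steps (adjusted p = 6.7e-06 and 0.0016, edgeR, Benjamini-Hochberg). Its stages did not overlap. For H2ac12 the levels were 39.0 and 43.0, then 71.2 and 58.1, then 100.4 and 73.2 RPKM, and neither step passed the test. H2bc11, the next most abundant H2B gene after H2bc12, had 257 and 201 RPKM in 2-cell, 167 and 184 in 4-cell and 277 and 166 in 8-cell controls. It fell by 0.55 ± 0.20 at the first step (adjusted p = 0.031, edgeR, Benjamini-Hochberg), and its 8-cell libraries reached both above and below the earlier ones. The fall of H2bc11 did not pass the adjusted p without each of the 4 libraries compared (−0.67 to −0.44), nor with library size alone (−0.39). H3c6, next to H3c7 among H3 genes, rose by 1.37 ± 0.13, from 34.1 and 31.6 to 84.5 and 107 RPKM. In the H4 class, H4c8 had 56.3 and 49.8, then 88.6 and 102, then 128 and 120.0 RPKM, with rises of 0.68 ± 0.16 and 0.59 ± 0.16. The second rise of H4c8 did not pass without each of the 4 libraries compared (0.49 to 0.69), nor with library size alone (0.38).

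From the 4-cell to the 8-cell stage, control embryos had 14 histone genes called higher and 0 called lower, against 0.474% and 1.09% of all genes tested. By adjusted p alone, edgeR gave 33 higher and 0 lower genes, against 3.19% and 2.68% of all genes, 1 was lower at an unadjusted p under 0.05, and DESeq2 gave 0 lower. The largest rises among the called genes were those of the H4 gene H4c14 (1.63 ± 0.28) and of the H2B genes H2bc7 (1.54 ± 0.21) and H2bc6 (1.46 ± 0.23). H4c14 had 11.4 and 14.3 RPKM in 4-cell controls, then 41.4 and 27.3 in 8-cell controls, and its call was lost without control 4-cell replicate 1 (1.48, adjusted p = 0.094, edgeR, Benjamini-Hochberg). The number called was 6 without control 8-cell replicate 1 and 9 without control 4-cell replicate 1, or with library size as the only scaling.

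MERVL-KD embryos were compared between stages in the same fit. From the 2-cell to the 4-cell stage, 36 histone genes were called higher and 4 lower, against 21.2% and 23% of all genes tested. The 4 lower genes were H1f0 (−2.05 ± 0.15), H1f8 (−1.54 ± 0.18), H3c7 (−1.32 ± 0.10) and H1f1 (−1.26 ± 0.14), each of which was also among the 8 lower genes in controls. The largest rises were those of H1f4 (4.12 ± 0.14), H2ac8 (3.83 ± 0.36) and H1f2 (3.77 ± 0.18). From the 4-cell to the 8-cell stage, 12 were called higher and 0 lower, against 0.333% and 1.31% of all genes tested (edgeR by adjusted p alone, 24 and 0, against 2.27% and 2.41% of all genes, with 1 lower at an unadjusted p under 0.05, and 0 lower by DESeq2). H2ac1 (1.72 ± 0.34), H2ac8 (1.50 ± 0.28) and H2bc7 (1.27 ± 0.20) had the largest rises among the called genes. The call for H2ac1 was lost without either MERVL-KD 4-cell replicate (1.60 and 1.91), and those for H2ac1 (1.32) and H2ac8 (1.14) without MERVL-KD 8-cell replicate 2. This count of 12 rested on single libraries, being 1 without MERVL-KD 8-cell replicate 2, 22 without MERVL-KD 8-cell replicate 1, 7 without either MERVL-KD 4-cell replicate, and 4 with library size alone.

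At the 2-cell stage no histone gene was called between MERVL-KD and control embryos, and most of those past the adjusted p alone were lower. Of 58 genes tested, 0 were called by edgeR (6.61% of all genes were called), 21 had an unadjusted p under 0.05 and DESeq2 also called 0. The number called was 1 without control replicate 1 and 4 without MERVL-KD replicate 1. By adjusted p alone, 1 gene was higher and 10 were lower, against 6.7% and 7.39% of all genes. The median log2 difference over the 58 genes was −0.32, with 13 above 0, beside 0.014 over all genes. The 10 lower genes were 4 linker, 1 H2A, 3 H2B and 2 H3 genes, and 0 of 10 H4 genes passed in edgeR (2 were lower at an unadjusted p under 0.05, and 0 passed in DESeq2). All 72 genes summed to 2510 and 2233 CPM for controls, against 2354 and 2252 for MERVL-KD libraries, and the groups overlapped, with a ratio of 0.971. By class the groups overlapped for H1, H2A and H2B, at ratios of 0.977, 0.941 and 0.950. H3 was lower without overlap at 0.886 and H4 higher without overlap at 1.17. Repeats took 23.6 and 25.2% of control counts, against 16.5 and 15.8% for MERVL-KD. With CPM taken over the counts on genes alone, all 72 genes summed to 3288 and 2987, against 2819 and 2676. On that scale this sum, H1, H2A, H2B and H3 were lower without overlap. H1 had 1466 and 1298.5 against 1242 and 1193, and H2A 126 and 130 against 119 and 98.1. H2B had 794 and 716 against 672 and 621, and H4 stayed higher, at 316 and 300 against 324 and 323.

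These small 2-cell differences depended on how libraries were scaled. The main scaling, the trimmed mean of M values (TMM), gave factors of 0.923 and 0.887 to the controls and 1.11 and 1.10 to the MERVL-KD libraries. Why these factors differed was not tested. With library size alone, the median over all genes was 0.30, that over histone genes −0.03, and 2 genes were higher (H1f4, H4c4) and 2 lower (H2bc9, H2bc14). A change of scaling moves all genes by about the same amount, so the distance between the medians says nothing about the stability of the result. H1f4 was higher and H2bc9 and H2bc14 lower in either case.

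In CPM scaled by TMM within the stage, called scaled CPM here, H1f4 had 6.60 and 6.17 in 2-cell controls, against 10.4 and 10.5 in the knockdown libraries. The groups did not overlap and H1f4 rose by 0.71 ± 0.20 (adjusted p = 0.026, edgeR, Benjamini-Hochberg). H1f1, the main linker transcript of this stage, had 1009 and 873 scaled CPM in the controls, against 747 and 737 after knockdown, also without overlap, and fell by 0.34 ± 0.08 (adjusted p = 0.010). Other linker genes fell by similar amounts, H1f5 by 0.41 ± 0.13, H1f0 by 0.38 ± 0.11 and H1f8 by 0.37 ± 0.12. H3c7, the main H3 transcript, had 330.3 and 303 scaled CPM in the controls, against 223 and 227 after knockdown, and fell by 0.50 ± 0.08 (adjusted p = 0.00084). The lowest difference past the test was that of H2bc9, with 61.6 and 63.1 scaled CPM in the controls, against 39.4 and 26.1 after knockdown. H2bc9 fell by 0.93 on the log2 scale. H3c7 and H2bc9 passed the adjusted p whichever library was left out, and the 5 linker genes named here did not. H1f4 no longer passed without control replicate 1 (0.74), control replicate 2 (0.65) or MERVL-KD replicate 1 (0.71), nor H1f1 without control replicate 1 (−0.25). Without control replicate 2, H1f5 (−0.34), H1f0 (−0.30) and H1f8 (−0.32) no longer passed, and neither did H1f5 (−0.37) and H1f8 (−0.29) without MERVL-KD replicate 2 and H1f0 (−0.37) without MERVL-KD replicate 1. H2bc9 and H2bc14 were named after their values were seen.

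At the 4-cell stage the histone genes past the adjusted p were all higher in MERVL-KD embryos. What part the developmental delay of these embryos, or a difference in cell-cycle phase, had in this result was not tested. Of 60 genes tested, 1 was called at 2-fold (4.54% of all genes were), and by adjusted p alone 16 were higher and 0 lower in edgeR, against 4.92% and 5.84% of all genes (unadjusted p under 0.05, 29 and 1, and DESeq2, 23 and 0). The higher genes were 4 of 9 linker, 4 of 16 H2B, 3 of 10 H3, and 5 of 11 H4 genes. Of the 14 H2A genes, 0 passed in edgeR (1 higher and 1 lower at an unadjusted p under 0.05, 0 by DESeq2), and no test compared the classes. The median log2 difference over the 60 genes was 0.41, with 50 above 0, beside 0.025 over all genes. All histone genes summed to 2202 and 2254 CPM for controls, against 3174 and 2859 for MERVL-KD libraries, a ratio of 1.35. The groups were apart in every class, at ratios of 1.37 for H1, 1.13 for H2A, 1.25 for H2B, 1.41 for H3 and 1.50 for H4. Without control replicate 1, 9 genes passed the adjusted p. The number called at 2-fold was 2 without control replicate 1 or either MERVL-KD replicate, and 4 without control replicate 2.

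**Figure D3:**
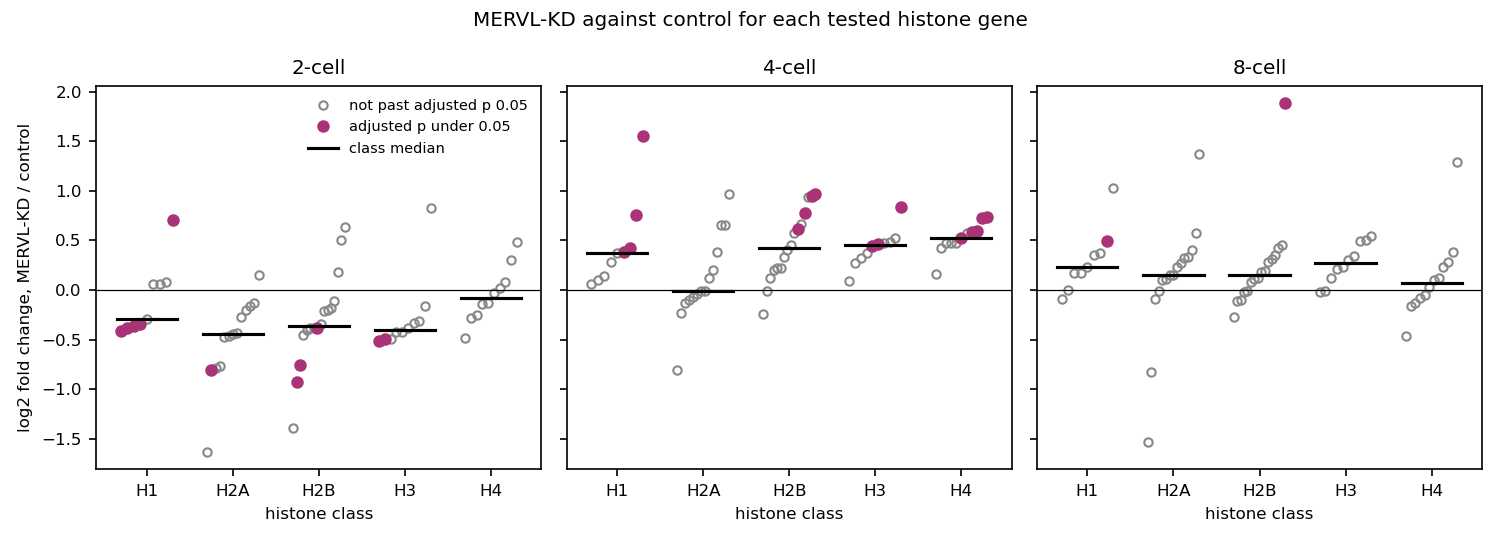
Log2 fold change of MERVL-KD over control (vertical axis) for each tested histone gene at the 3 stages, sorted within each class. Filled points passed an adjusted p of 0.05 and bars are class medians. Most points lie below 0 at the 2-cell stage (45 of 58) and above 0 at the 4-cell stage (50 of 60).

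The 1 gene called at the 4-cell stage was H1f10, which had 2.19 and 2.60 scaled CPM in the controls, against 5.91 and 8.15 after knockdown. The groups did not overlap, and H1f10 rose by 1.55 ± 0.31 on the log2 scale (adjusted p = 0.0083, edgeR, Benjamini-Hochberg), with values of 1.30 to 1.76 when each library was left out in turn. The gene overlaps Gm47286 on the same strand and Gm5577 on the other. Its log2 differences in 2-cell and 8-cell embryos were 0.08 ± 0.29 and 0.35 ± 0.33.

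The cluster genes moved less. H1f5 had 88.3 and 86.3 scaled CPM in the 4-cell controls, against 152 and 142 after knockdown, a rise of 0.75 ± 0.10 (adjusted p = 0.00058, edgeR, Benjamini-Hochberg). H4c4, the most abundant H4 transcript of this stage, had 156 and 170.1 against 243 and 227, a rise of 0.53 ± 0.10 (adjusted p = 0.0049). The groups were apart for both genes. H1f2 rose by 0.38 ± 0.10 and H1f4 by 0.42 ± 0.10, and H1f4 no longer passed without control replicate 2 (0.33, adjusted p = 0.25). For H1f1 the difference was 0.37 ± 0.12 with an adjusted p of 0.070 (edgeR, Benjamini-Hochberg), although its 264 and 209 scaled CPM for controls did not overlap the 325 and 287 after knockdown. H3c6, an H3 gene, rose by 0.47 ± 0.12, and H4c12 by 0.73 ± 0.16. Without control replicate 1, H4c4 (0.46), H1f2 (0.28), H3c6 (0.31) and H4c12 (0.63) no longer passed, and without MERVL-KD replicate 1, H1f2 (0.33) and H3c6 (0.37) did not. H1f5 passed whichever library was left out. Among the abundant H2A genes, H2ac13 and H2ac12 had differences of 0.20 ± 0.15 and −0.01 ± 0.17.

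The 4-cell counts were also split by sequence uniqueness and by stem-loop. Of the 43 tested genes with at least 50% unique stretches, 13 were higher at the 4-cell stage, and of the 17 with fewer, 3 were. Of the 16 in which every stretch was unique, 5 were higher. A stem-loop was found in 53 tested genes, of which 15 were higher, and not found in 7, of which 1 was.

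The difference between the 2-cell and 4-cell effects was itself tested, as an interaction in the fit of all 12 libraries. The signed log2 fold change at the 4-cell stage minus that at the 2-cell stage was above 0 and past the adjusted p for 12 of 62 genes, and below 0 for 0, against 2.51% and 1.64% of all genes (edgeR, unadjusted p under 0.05, 27 and 0, and DESeq2, 20 and 0). They were 2 linker, 3 H2B, 6 H3 and 1 H4 genes, and 0 of 15 H2A genes passed in edgeR (1 at an unadjusted p under 0.05, 0 by DESeq2). All 12 were below 0 at the 2-cell stage and above 0 at the 4-cell stage. Choosing genes by this difference favours such signs, so the signs are no separate evidence. They also depend on the scaling. In unscaled CPM, Hist1h4n averaged 9.37 in 2-cell controls and 9.67 in 2-cell MERVL-KD libraries. Of the 12 the largest difference was that of H2bc9, at 1.78 ± 0.23 on the log2 scale, and the larger of the linker genes was that of H1f5, at 1.24 ± 0.19. For H1f1 and H3c7, the main 2-cell transcripts, it was 0.79 ± 0.19 and 0.84 ± 0.14. With library size alone the median over all genes was −0.25 and 5 genes passed, namely H2bc9, H2bc13, H1f5, H3c7 and H3c8. Leaving out each of the 8 libraries left 6 to 9 genes, namely 6 without control 2-cell replicate 2, and 7 without MERVL-KD 2-cell replicate 2, control 4-cell replicate 1 or either MERVL-KD 4-cell replicate. H2bc9, H1f5 and H3c7 passed each time, whereas H1f1 passed only without control 4-cell replicate 1 (0.97). Between the 4-cell and 8-cell stages, 0 genes had a different effect in edgeR (2 higher and 5 lower at an unadjusted p under 0.05, 0 by DESeq2), against 0.275% and 0.349% of all genes. Without MERVL-KD 8-cell replicate 2 the number was 1 (Hist1h4n, −0.99).

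**Figure D4:**
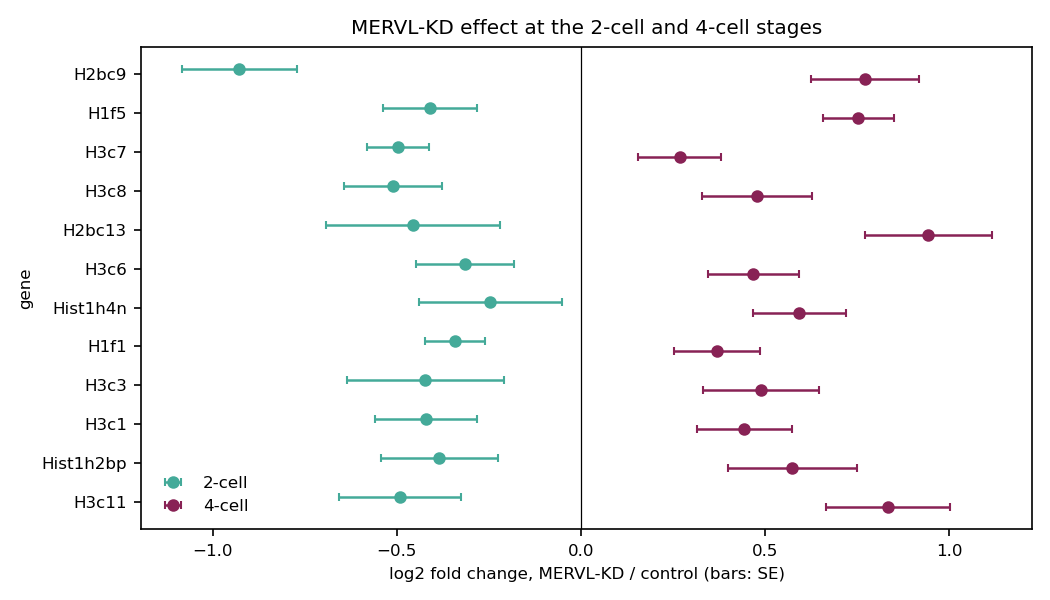
Log2 fold change of MERVL-KD over control (horizontal axis) at the 2-cell and 4-cell stages for the 12 histone genes (vertical axis) whose effects differed between these stages. Points are estimates from 2 libraries a group and bars are SE. All 12 genes lie below 0 at the 2-cell stage, from −0.93 for H2bc9 to −0.25 for Hist1h4n, and above 0 at the 4-cell stage. The genes were chosen by this difference, so their signs are no separate evidence.

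Few histone genes differed in 8-cell embryos, and the result turned on a testis-type H2B gene. Of 62 tested, 1 was called at 2-fold (1.7% of all genes), and by adjusted p alone edgeR gave 2 higher and 0 lower, against 1.5% and 3.56% of all genes (unadjusted p under 0.05, 7 and 0, and DESeq2, 2 and 0). The number called was 4 without control replicate 1, 2 without MERVL-KD replicate 1 and 0 without MERVL-KD replicate 2. The median log2 difference was 0.18, and it was 0.38 without control replicate 1, 0.015 without control replicate 2, 0.31 without MERVL-KD replicate 1 and 0.041 without MERVL-KD replicate 2. All histone genes summed to 3683 and 2876 CPM for controls, against 3736 and 4418 for MERVL-KD libraries, a ratio of 1.24. On this scale the lowest MERVL-KD value was just above the highest control value. With CPM taken over the counts on genes alone the groups overlapped, at 4744 and 3617 for controls, against 4728 and 5664 for MERVL-KD. MERVL-KD replicate 2 was the highest library in every class, and without MERVL-KD replicate 1, 20 genes passed the adjusted p, while 8 did without control replicate 1 and 1 did without control replicate 2.

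H2bc1 encodes TH2B, the H2B of male germ cells that is also present in oocytes. It had 14.2 and 6.86 scaled CPM in 8-cell controls, against 31.3 and 46.1 after knockdown. The groups did not overlap, and H2bc1 rose by 1.88 ± 0.36 on the log2 scale (adjusted p = 0.039, edgeR, Benjamini-Hochberg). The call was lost without MERVL-KD replicate 2 (1.57, adjusted p = 0.064). In 4-cell embryos it had 13.1 and 8.03 against 20.1 and 21.4 scaled CPM and rose by 0.97 ± 0.23 (adjusted p = 0.020), which did not pass without control replicate 2 (0.65, adjusted p = 0.12). In 2-cell embryos, whose controls had the most H2bc1, it had 36.7 and 34.5 against 27.7 and 28.7 scaled CPM, a difference of −0.34 ± 0.13 (adjusted p = 0.094). Of the 150-base stretches of H2bc1, 88.1% are unique. The other gene past the test at the 8-cell stage was H1f4, with 207 and 191 scaled CPM in the controls, against 244 and 318 after knockdown, a rise of 0.50 ± 0.12 (adjusted p = 0.034). H1f4 was thus higher at all 3 stages, and its 8-cell rise did not pass without control replicate 2 (0.45, adjusted p = 0.093).

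The neighbour of H2bc1 is H2ac1, which encodes TH2A, the germ cell partner of TH2B, and is transcribed in the opposite direction from the same short stretch. H2ac1 had 13.2 and 5.69 scaled CPM in 8-cell controls, against 18.0 and 30.7 after knockdown, without overlap, and its difference of 1.37 ± 0.45 did not pass the test (adjusted p = 0.18, edgeR, Benjamini-Hochberg). Its differences in 2-cell and 4-cell embryos were −0.16 ± 0.22 and 0.66 ± 0.27. Part of the stretch between the starts of both genes, running from 250 bases before the RefSeq start of H2bc1 to shortly past its TATAAA, is printed on the H2bc1 strand because both genes are transcribed away from it, with CCAAT, ATTTGCAT and TATAAA, or their reverse complements, in capitals.
H2bc1-H2ac1 (chr13:23934225-23934406, minus strand): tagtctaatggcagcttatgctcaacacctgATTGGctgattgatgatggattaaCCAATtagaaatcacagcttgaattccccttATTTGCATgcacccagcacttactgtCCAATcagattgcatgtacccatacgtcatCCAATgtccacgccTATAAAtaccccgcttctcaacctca
Its 182 bases hold CCAAT at 4 places, ATTTGCAT once and TATAAA once.

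**Figure D5:**
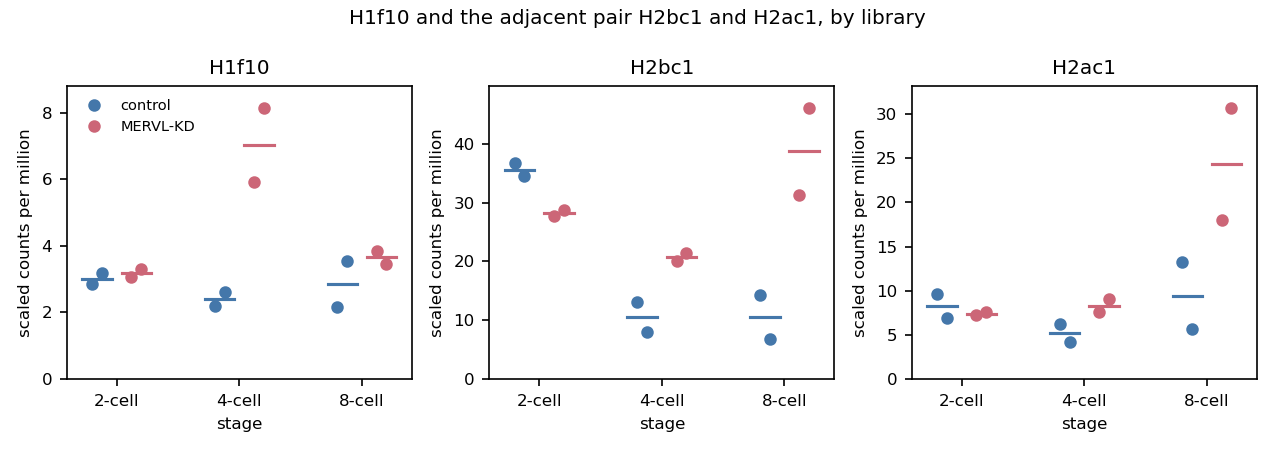
Scaled CPM (vertical axis, from 0) of H1f10, H2bc1 and H2ac1 in each library by stage. Points are libraries and bars are group means. H1f10 is apart between groups at the 4-cell stage, and H2bc1 and H2ac1 at the 4-cell and 8-cell stages. At the 2-cell stage H2bc1 is apart in the other direction, with both MERVL-KD libraries below both controls.

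The same 3 motifs were counted on both strands of RefSeq promoter windows (250 bases before to 50 after the start), which were matched for 63 of the 72 histone genes. TATAAA was present in 34 of them (54%) against 14.2% of 27025 promoters, and CCAAT in 52 (82.5%) against 37.9%. ATTTGCAT, the octamer known from H2B promoters, was present in 12 (19%) against 1.75%. CCAAT was in every H2A, H2B and H3 window but in 3 of 11 H4 windows, and the octamer was found in 6 of 17 H2A and 6 of 15 H2B windows and in 0 of the H1, H3 and H4 windows. Divergent H2A and H2B neighbours can share much of their windows, as H2ac12 (chr13:22035594-22035893) and H2bc12 (chr13:22035571-22035870) do. A site in the shared bases is counted for both genes, so these windows are not independent. A match describes the letters only.

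Genes that act on histone mRNA and histone gene transcription were described from a list of 24. At the 2-cell stage 0 were higher and 4 lower in MERVL-KD embryos (edgeR at an unadjusted p under 0.05, 0 and 5, and DESeq2, 0 and 4). Over all genes 6.7% were higher and 7.39% lower at this stage, 4.92% and 5.84% at the 4-cell, and 1.5% and 3.56% at the 8-cell stage. Slbp, the stem-loop binding protein, had 148 and 154 scaled CPM in the controls, against 102 and 92.2 after knockdown, without overlap, and fell by 0.64 ± 0.09 (adjusted p = 0.00023, edgeR, Benjamini-Hochberg). The other 3 were Srrt and Ncbp2, of the cap-binding machinery, and Cstf2t, of the 3′ cleavage complex. In 4-cell embryos 2 of the 24 passed as higher and 3 as lower, the former Ccne2 (1.13 ± 0.16), a cyclin of the entry into S phase, and Cstf2t (0.37 ± 0.11), and the latter Ncbp1, Ccne1 and Cpsf3. Slbp differed by −0.06 ± 0.12 there and by −0.04 ± 0.11 in 8-cell embryos, where 0 of the 24 passed in edgeR (0 higher and 4 lower at an unadjusted p under 0.05, 0 and 3 by DESeq2). For Slbp, Ccne2 and Cstf2t the signed log2 difference was higher at the 4-cell than at the 2-cell stage by the interaction test, by 0.65 ± 0.16, 1.38 ± 0.23 and 0.88 ± 0.16.

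Histone variants, which are mostly made outside S phase from polyadenylated mRNAs, numbered 14 in the files. At the 2-cell stage 1 of the 10 tested was higher and 5 were lower, against 6.7% and 7.39% of all genes. The higher one was H2aj, an H2A variant, with 3.20 and 3.36 scaled CPM in the controls, against 10.0 and 8.26 after knockdown, apart between groups and rising by 1.48 ± 0.23 (adjusted p = 0.00048, edgeR, Benjamini-Hochberg). The lower ones were H3f3a and H3f3b, which encode H3.3, H2az1 and H2az2, which encode H2A.Z, and Cenpa, the centromeric H3, which fell by 0.62 ± 0.09. H2aj also rose at the 4-cell stage, by 1.05 ± 0.19, from 8.99 and 8.64 to 18.9 and 17.7, as 1 of 9 tested, with 0 lower (1 at an unadjusted p under 0.05, 0 by DESeq2). At the 8-cell stage 0 were higher, also at an unadjusted p under 0.05 and by DESeq2, and 1 was lower, H3f3a, which fell by 0.36 ± 0.08.

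Cell cycle genes are given because replication-dependent histone mRNAs follow S phase. Of 25 S-phase genes, 0 were higher in MERVL-KD embryos at any stage and 5, 2 and 2 were lower in 2-cell, 4-cell and 8-cell embryos (edgeR, unadjusted p under 0.05, 0, 2 and 1 higher, and DESeq2, 0 higher at each stage). Over all genes 7.39%, 5.84% and 3.56% were lower at these stages. Mcm2, a subunit of the replicative helicase, was lower each time, by 0.71 ± 0.10, 0.69 ± 0.09 and 0.48 ± 0.09 in size on the log2 scale. Of 20 genes of G2 phase and mitosis, 16, 6 and 6 were lower, and 0, 0 and 1 higher (edgeR, unadjusted p under 0.05, 0, 2 and 1 higher, and DESeq2, 0, 0 and 1). Their part in the histone results was not tested.

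Stage markers moved as well. Of 7 genes listed as markers of the 2-cell stage, 5 were lower in 2-cell, 2 in 4-cell and 1 in 8-cell MERVL-KD embryos, with 0 higher (edgeR, unadjusted p under 0.05, 0, 1 and 0 higher, and 0 by DESeq2). Sp110, lower at each stage and the 1 gene at the 8-cell stage, rose in controls. It had 987.5 and 1035 CPM in 2-cell, 1374 and 1472 in 4-cell and 1463 and 1588 in 8-cell controls. Tdpoz4 had 84.2 and 70.4, then 85.3 and 89.9 CPM in 2-cell and 4-cell controls. Neither gene thus marked the 2-cell stage here. Of 7 oocyte and early embryo markers, 4 were lower in 2-cell embryos, where 7.39% of all genes were. Of 8 markers of later cleavage, 1 was higher in 2-cell embryos, and 3 passed as higher and 1 as lower in 4-cell embryos, the former being Klf4 and the keratin genes Krt8 (2.45 ± 0.20) and Krt18 (1.41 ± 0.28), and the latter Tead4 (−0.56 ± 0.12). In 8-cell embryos 0 of the 8 were higher, also at an unadjusted p under 0.05 in edgeR and by DESeq2, and Nanog and Pou5f1 were lower. Their part in the histone results was not tested.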

How the data were processed

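Total RNA was measured in 12 libraries (SMART-Seq Stranded, random hexamers, ribosomal cDNA depleted). The deposited values are counts, made by the authors with STAR 2.5.3a (unique alignments to GRCm38) and featureCounts (Subread) over GENCODE genes and RepeatMasker families. The strand and pair settings are not given in the sources used here, and most counts are even, as when both mates of a pair are counted. Totals were 28167085 to 41482526 per library. Chromatin accessibility libraries were not used here.

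MERVL-KD was compared with control within each stage (4 libraries), and stages and interactions in 1 fit of 12 libraries, with the quasi-likelihood test of edgeR 4.0.16 (TMM scaling, robust, filterByExpr, R 4.3.3) and Benjamini-Hochberg adjustment over all genes and repeat families tested. Genes that passed an adjusted p of 0.05 and changed 2-fold or more were called, and interactions used the adjusted p alone. Errors are SE of the log2 fold change. DESeq2 1.42.0, other scalings and filters, a replicate block and leaving out each library were alternatives. The procedure was tested on simulated data. RPKM used the exon lengths in the files and deposited totals. Summed levels and RPKM are not TMM-scaled.

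The members and gene lists were chosen with earlier results of these data known. Named members are those called against control at any stage, the linker genes with counts, the most abundant of each core class, and the largest changes between stages. Others were named after their values were seen.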

Additional observations from a re-analysis of the deposited data

Results flagged for a closer look

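In 12 histone genes the MERVL-KD effect differed between the 4-cell and the 2-cell stage by the interaction test (edgeR, adjusted p under 0.05). The effect at the 4-cell stage minus that at the 2-cell stage, on the log2 scale, was 1.78 for H2bc9, 1.48 for H2bc13 and 1.04 for Hist1h2bp among H2B genes. It was 1.24 for H1f5 and 0.79 for H1f1 among linker genes. Among H3 genes it was 1.40 for H3c11, 1.07 (1.065) for H3c8, 0.99 for H3c3, 0.94 for H3c1, 0.86 for H3c6 and 0.84 for H3c7. The only H4 gene was Hist1h4n, at 0.92. The adjusted p ranged from 0.00016 for H2bc9 to 0.043 for H3c11.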

How the results depend on the processing

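Without the fold threshold the counts of called histone genes were 11, 16 and 2 for MERVL-KD against control at the 2-cell, 4-cell and 8-cell stages, 33 for control 8-cell against 4-cell and 24 for the same step in MERVL-KD embryos. With library size as the only scaling, 3 were called at the 4-cell stage, 9 and 4 in the 8-cell against 4-cell comparisons and 5 in the interaction of the 4-cell and 2-cell stages, and 4 passed the adjusted p in 2-cell and 4 in 8-cell embryos. Fitting all 12 libraries together gave 1 called in 2-cell and 2 in 8-cell embryos, and 7 past the adjusted p in 2-cell embryos. Keeping every gene with at least 1 count gave 2 called and 8 past the adjusted p at the 8-cell stage, and DESeq2 gave 20 in the interaction. Leaving out each library gave 0 to 4, 2 to 4 and 0 to 4 called against control, 6 to 20 and 1 to 22 called in the 8-cell against 4-cell comparisons of control and MERVL-KD embryos, and 8 to 16, 9 to 18 and 1 to 20 past the adjusted p against control. For the interactions, an alternative chosen after seeing the data, it gave 6 to 9 genes at the 4-cell against the 2-cell stage and 0 to 1 at the 8-cell against the 4-cell stage. Scaled to the counts on genes alone, the summed 2-cell ratio was 0.876. Same-numbered libraries did not deviate together (r = −0.016, 0.0073 and 0.014 at the 3 stages, across genes), and the main fits left them unpaired. This check cannot exclude that they shared a day or litter. With the replicate block, 2 were called in 4-cell and 0 in 8-cell embryos, and 1 passed the adjusted p in 8-cell embryos. Apart from these alternatives' own construction (threshold, genes or samples used), the cause was not tested. The counts from the 2-cell to the 4-cell stage, 29 in control and 40 in MERVL-KD embryos, stayed within 1.5 times under all alternatives run. Named genes past the adjusted p against control kept their sign. Among those not past it, some changed sign, such as H1f2 in 8-cell embryos (0.18, and −0.097 to 0.44 with each library left out). With 2 libraries a group, small differences in low genes such as H1f6 cannot be resolved.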
